A study of Mus musculus with 4 samples.

Results

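Ly6a, Anxa1, Anxa3, Clu, Plaur, F3, Msln and Cd44 are genes of epithelial repair and of the fetal-like state that injured gut epithelium can enter, and they were followed here in the colons of mice given dextran sulfate sodium (DSS), which wounds the lining of the colon and brings on colitis. They were chosen by name, and their probes by the RefSeq accession that each probe targets. All 8 were found among the 20832 genes named on the array, with 13 of the 27427 named probes, and each is represented by its brightest probe. Wild-type (WT) mice were compared with STAP-2-/- mice, which lack the adaptor STAP-2, a partner of STAT3. All mice were C57BL/6J, aged 14 weeks, and had drunk 1.75% DSS, for 7 days by one label and 3 days by another. Neither untreated mice nor any other control for DSS are among the arrays. RNA of the entire colon was pooled from 3 mice per sample, and each pool was put on 1 one-colour Agilent array, giving 2 arrays per genotype. The titles number the arrays of a genotype 1 and 2 and call them biological replicates, without saying what the number shares between genotypes. Since a whole colon was measured, fewer cells of a type and less RNA per cell cannot be told apart.

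When the gut lining is wounded, surviving epithelial cells can switch off adult stem cell genes and switch on genes of the fetal gut, a state in which YAP and TEAD transcription factors are active and for which Ly6a (Sca-1) is the usual surface marker. Anxa1, Anxa3, Clu and Msln are read as parts of the same programme. Plaur and F3 start proteolysis and clotting at cell surfaces, and CD44 binds hyaluronan in the wound matrix. None of the 8 is restricted to epithelium: myeloid cells carry Plaur, Cd44 and Anxa1, mesothelium carries Msln, and lymphocytes and vessels carry Ly6a.

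All 4 arrays lay on 1 slide and were scanned together, at positions that follow the number within the labels. Between 68.4% and 70.5% of the spots stood well above background; precision is limited by the number of arrays. Stap2 itself was at least 721-fold higher in WT, as the labels call for, with an adjusted limma p of 0.314. All 9 colon epithelium markers checked, among them Epcam, Krt20 and Cdx1, were well above background on all 4 arrays. Values below are log2 of the processed signal minus the 75th percentile of the array, so 0 is the 75th percentile. They compare arrays for 1 probe and do not compare genes.

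Between genotypes, Anxa1 was lower in STAP-2-/- colons on both arrays, and the other 7 genes overlapped between the genotypes. The mean was lower in STAP-2-/- for 7 of the 8 genes, Cd44 being the exception, where 51.7% of all 15561 genes tested were lower. Their median log2 difference, STAP-2-/- minus WT, was -0.19, against -0.0068 over all genes tested. None passed the limma test across all genes at an adjusted p of 0.05, and neither did any other gene (0%), while 325 genes (2.09%) had an unadjusted p under 0.05, none of the 8 among them. No overlap between the genotypes was found for 1 of the 8 genes and for 24.8% of all genes.

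Between the arrays numbered 1 and 2, by contrast, 6 of the 8 genes did not overlap, which 62.4% of all genes tested did not either. Cd44, Plaur and Ly6a were higher on both arrays numbered 2 (26.4% of all genes), and F3, Msln and Anxa3 were lower on both (36% of all genes). The mean was lower on number 2 for 4 of the 8 and for 55.2% of all genes. The limma test by number also called 0 genes at an adjusted p of 0.05, with 3943 genes (25.3%) at an unadjusted p under 0.05, 5 of the 8 among them. The median size of the log2 difference by number was 0.56 for the 8 genes and 0.22 over all genes, and by genotype 0.19 and 0.12. The range over the 4 arrays had a median of 0.99 for the 8 genes and 0.42 over all genes. It was at least 1 for 4 of the 8 and for 12.5% of all genes.

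**Figure D1:**
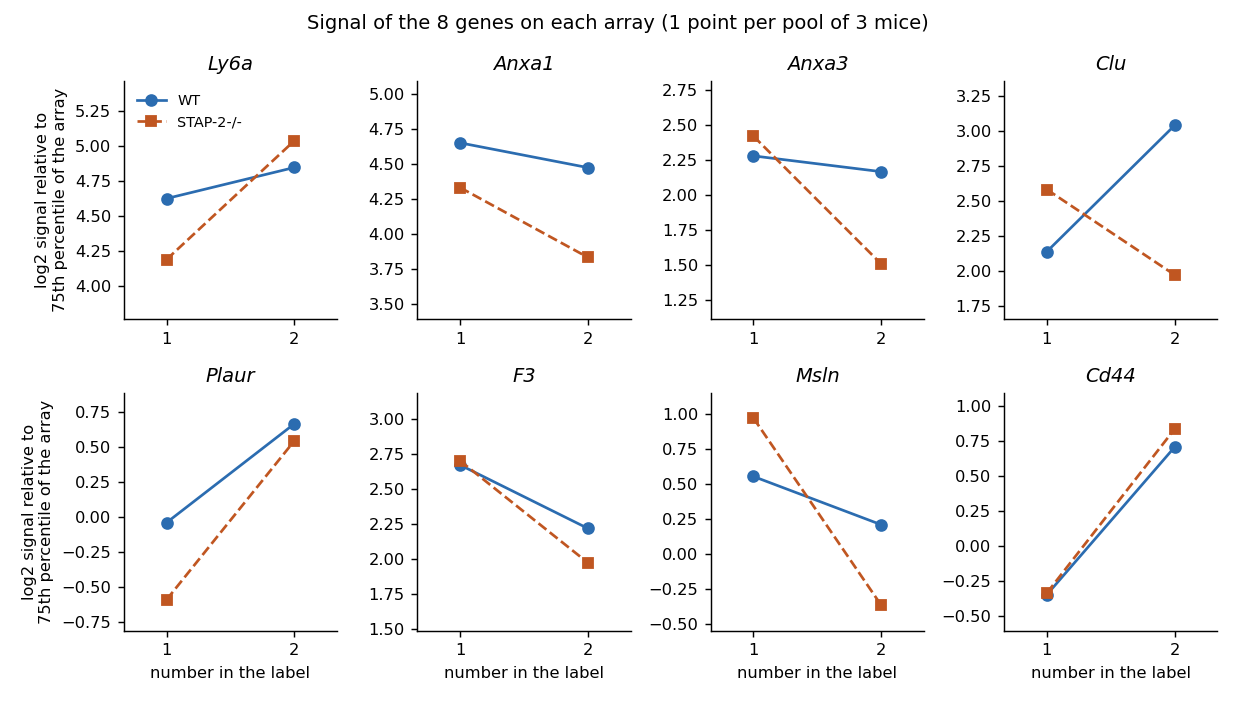
Log2 signal relative to the 75th percentile of the array (vertical axis) for each of the 8 genes on the WT (circles) and STAP-2-/- (squares) arrays numbered 1 and 2 (horizontal axis), 1 point per pool of 3 mice; lines join the arrays of a genotype. The panels span the same height on the log2 scale but are placed at different levels. Anxa1 has both WT points above both STAP-2-/- points, and the lines of Cd44 nearly coincide.

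Annexin A1 is a calcium-dependent membrane-binding protein that, once secreted, limits neutrophil entry through formyl peptide receptors. Its log2 signal was 4.65 on WT 1, 4.48 on WT 2, 4.33 on STAP-2-/- 1 and 3.84 on STAP-2-/- 2. Both WT arrays lay above both STAP-2-/- arrays, and STAP-2-/- 2 was the lowest. The mean was 4.57 ± 0.13 in WT and 4.09 ± 0.35 in STAP-2-/- (SD, n = 2), 1.39-fold lower in STAP-2-/-. The log2 difference was -0.48 (SE 0.23, 95% interval -1.12 to 0.16), with an unadjusted limma p of 0.104 and an adjusted p of 1.0. A larger difference in either direction was found for 5.94% of all genes. Without STAP-2-/- 1 the log2 difference was -0.73 and without STAP-2-/- 2 it was -0.23, so its size depended on the array left out. Here and for the genes below, leaving out 1 array unbalances number and genotype, so each such difference takes in part of the other. The other probe of Anxa1 was lower in STAP-2-/- as well, at 2.82 and 2.79 in WT against 2.55 and 2.29, again with no overlap.

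The receptors that annexin A1 uses followed the number and not the genotype. Fpr1 was at -5.10 on WT 1 and -5.36 on STAP-2-/- 1, against -2.37 on WT 2 and -2.61 on STAP-2-/- 2. Fpr2 was at -5.18 and -5.58 against -2.83 and -3.13. Both genes are expressed mainly by neutrophils and other myeloid cells. S100a10 and S100a11, genes of annexin partners from the calcium-binding S100 family, were higher by 0.57 and 0.96 on the arrays numbered 2. Of 5 tested genes of this small list, 4 were higher there with no overlap (26.4% of all genes). All 5 had a lower mean in STAP-2-/- (51.7% of all genes; median -0.25), with none free of overlap between genotypes (24.8% of all genes).

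Annexin A3, from the same family, did not share the pattern of Anxa1. Its log2 signal was 2.28 on WT 1, 2.16 on WT 2, 2.42 on STAP-2-/- 1 and 1.50 on STAP-2-/- 2. STAP-2-/- 2 stood below the other arrays, which lay close together. The genotypes differed by -0.26 (SE 0.35, 95% interval -1.25 to 0.73), and by 0.20 without STAP-2-/- 2. Number 2 minus number 1 was -0.51 (SE 0.25), with an adjusted p of 0.272. Of the 9 other annexins tested, 6 had a lower mean in STAP-2-/-, 1 of them (Anxa2) with no overlap (13.3% of all genes), with a median difference of -0.10. Anxa2, which pairs with S100A10 to assemble plasmin at cell surfaces, was at 6.54, 6.52, 6.35 and 6.35 on WT 1, WT 2, STAP-2-/- 1 and STAP-2-/- 2, a difference of -0.18 (SE 0.12). Anxa5, which binds exposed phosphatidylserine, differed by 0.019.

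**Figure D2:**
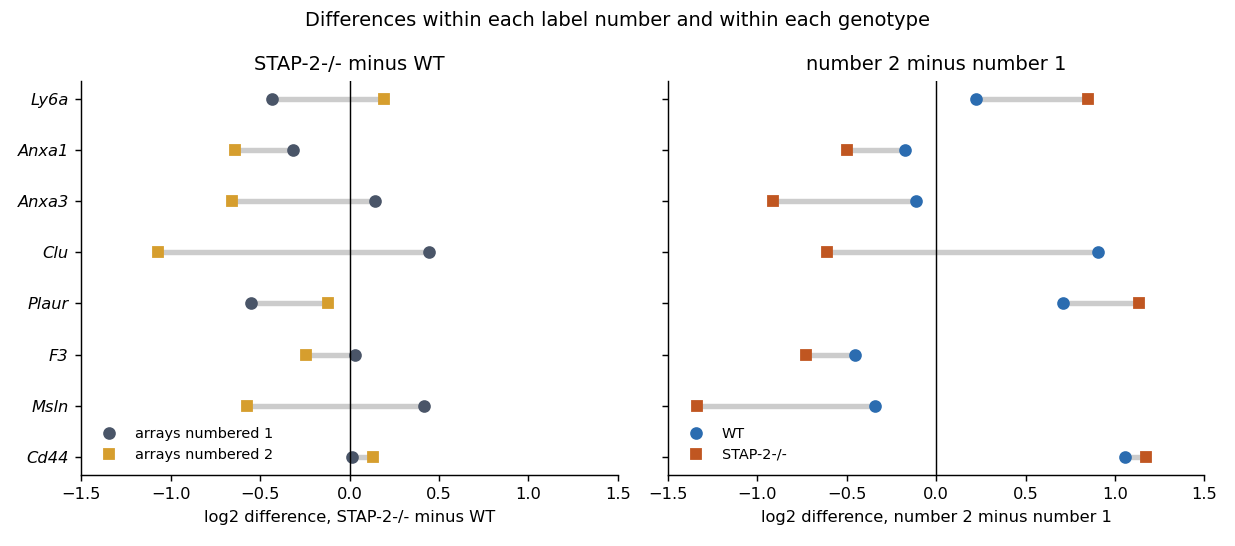
Log2 differences of the 8 genes. Left, STAP-2-/- minus WT for the arrays numbered 1 (circles) and 2 (squares); right, number 2 minus number 1 in WT (circles) and STAP-2-/- (squares); grey bars join the values of a gene. Anxa1 and Plaur lie left of 0 at both numbers and Cd44 right of it, while Clu spans 0 in both panels.

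Set against the array of the same number, STAP-2-/- differed from WT in the same direction at both numbers for 3 of the 8 genes and for 56% of all genes. It was lower at both for 2 of the 8 and for 29.1% of all genes. Anxa1 was lower by 0.32 and 0.64, Plaur by 0.55 and 0.12, and Cd44 was higher by 0.012 and 0.13. Ly6a, Anxa3, Clu, F3 and Msln differed in opposite directions at the numbers. Within a genotype, number 2 differed from number 1 in the same direction for 7 of the 8 genes, Clu excepted, and for 77.2% of all genes. Of those 7, all had the larger difference between the STAP-2-/- arrays. Over all genes the SD of that difference was 0.42 in WT and 0.66 in STAP-2-/-.

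Plaur encodes the receptor of urokinase, which places plasminogen activation at the cell surface. The log2 signal was -0.041 on WT 1, 0.66 on WT 2, -0.59 on STAP-2-/- 1 and 0.54 on STAP-2-/- 2. Both arrays numbered 2 lay above both numbered 1, and the genotypes overlapped. Number 2 was 1.89-fold higher, a log2 difference of 0.92 (SE 0.21, 95% interval 0.35 to 1.50), with an unadjusted limma p of 0.0104 and an adjusted p of 0.130. The genotypes differed by -0.34 (SE 0.50), and by 0.23 without STAP-2-/- 1 and 0.017 without WT 2. The last 2 values take in part of the difference by number. Between arrays of the same number, STAP-2-/- minus WT was -0.55 and -0.12. Its ligand gene Plau was higher on the arrays numbered 2 with no overlap, by 0.79 (SE 0.25), and so was the other plasminogen activator gene, Plat, by 0.51 (SE 0.15). In the plasminogen list 8 of 10 genes were tested, of which 5 were higher in STAP-2-/- (median 0.18) and 5 were higher on number 2 (median 0.36). Plg itself was not well above background on any array.

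F3 encodes tissue factor, the receptor of factor VII that starts clotting. Its log2 signal was 2.67 on WT 1, 2.22 on WT 2, 2.70 on STAP-2-/- 1 and 1.98 on STAP-2-/- 2. The arrays numbered 1 nearly coincided and lay above those numbered 2. Number 2 was 1.51-fold lower, a log2 difference of -0.59 (SE 0.13, 95% interval -0.94 to -0.25), with an unadjusted limma p of 0.00817 and an adjusted p of 0.125. The other F3 probe gave -0.41 by number. The genotypes differed by -0.11 (SE 0.33), by 0.12 without WT 1 and by 0.26 without STAP-2-/- 2. Tissue factor and the urokinase receptor thus lay on opposite sides by number: F3 lower, Plaur higher.

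Most other genes of the tissue factor pathway did not share the direction of F3 by number. Of 10 tested, 8 had a higher mean on number 2 (median 0.17), where 55.2% of all genes had a lower mean. F10 and, named after their values were seen, F5 and F13a1 were nearly level by number, at 0.00069, 0.0078 and 0.0026. F10, the clotting protease that tissue factor with factor VII activates, was at 4.51 and 4.45 in WT against 4.19 and 4.25 in STAP-2-/-. That is a difference of -0.26 (SE 0.13), with no overlap and an unadjusted p of 0.112. Tfpi, the inhibitor of the pathway, differed by -0.049 (SE 0.23) between genotypes and by -0.15 (SE 0.19) by number. F2rl1, the receptor PAR2 that tissue factor signalling can cleave, differed by 0.14 (SE 0.17) between genotypes. By number F2rl1 differed by -0.23 (SE 0.12) with no overlap, on the same side as F3 (36% of all genes). F7 was not well above background on any array. By genotype 9 of the 10 were lower, with a median of -0.11, 2 of them with no overlap (13.3% of all genes): F10 and, named after its values were seen, F13a1 (lower by 0.048).

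CD44 is a hyaluronan receptor carried by stem and wound-edge epithelium and by most leukocytes. On the log2 scale it was at -0.35 on WT 1, 0.71 on WT 2, -0.33 on STAP-2-/- 1 and 0.84 on STAP-2-/- 2. The arrays of a number agreed within 0.13, and the genotypes overlapped almost fully. Number 2 was 2.16-fold higher, a log2 difference of 1.11 (SE 0.11, 95% interval 0.83 to 1.40), with an unadjusted limma p of 0.000304 and an adjusted p of 0.0874. A larger difference by number was found for 3.57% of all genes. With 1 array left out it ran from 1.05 to 1.18. The genotypes differed by 0.071 (SE 0.58), by -0.46 without WT 1 and by -0.52 without STAP-2-/- 2. Leaving out 1 array unbalances number and genotype, so the last 2 values take in part of the difference by number. The interval of the genotype difference, -1.55 to 1.70, leaves room for changes of either sign.

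Cd44 has 4 probes, all to the same transcript record, and all gave a higher mean on number 2, by 1.11, 1.38, 0.69 and 0.62 from the brightest probe to the dimmest. The genotype difference was 0.071, 0.17, 0.12 and 0.83 in the same order, so the dimmest probe departed from the others. It read -5.58 and -5.24 in WT against -5.02 and -4.13 in STAP-2-/-. Cd44 is spliced into many forms, and which exons each probe covers was not analysed here.

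**Figure D3:**
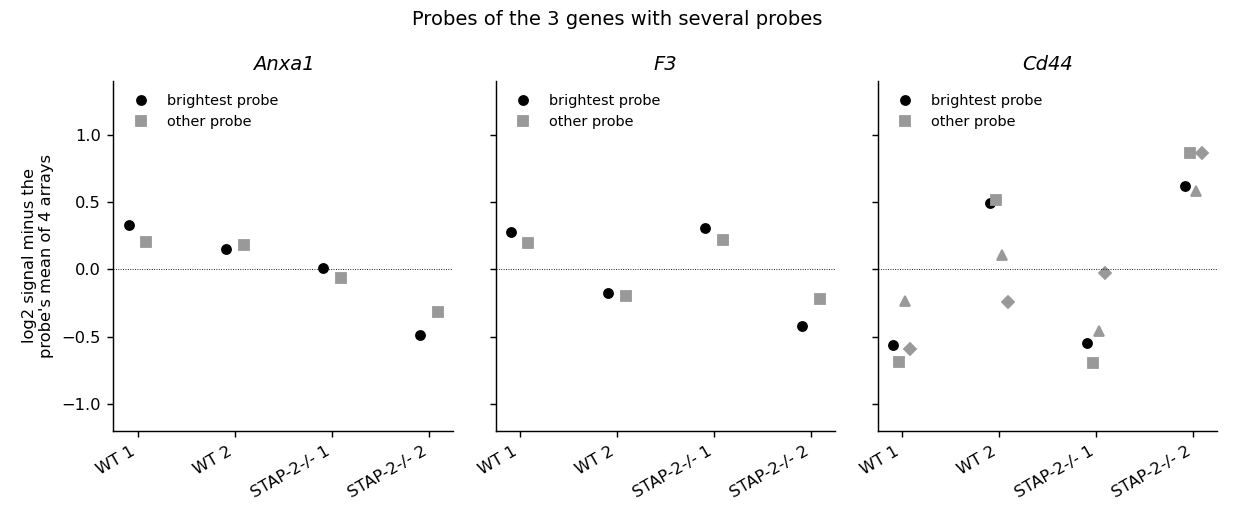
Log2 signal of each probe minus the mean of that probe over the 4 arrays (vertical axis) on each array (horizontal axis) for Anxa1 (2 probes), F3 (2) and Cd44 (4); black circles mark the brightest probe, used elsewhere, and grey symbols the others. The probes of Anxa1 and F3 keep the same order of arrays within each gene, and the dimmest Cd44 probe (diamonds) is set apart on STAP-2-/- 1, above the others, and on WT 2, below them.

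Among genes of hyaluronan and of CD44's partners, 8 of 11 tested were higher on number 2 (median 0.29) and 9 were lower in STAP-2-/- (median -0.19). Has2, a hyaluronan synthase, was at -3.46 on WT 2 and between -5.52 and -5.04 on the other arrays. Its genotype difference of -0.97 (SE 0.64) therefore rested on WT 2. Hyal2, a hyaluronidase, was lower in STAP-2-/- by 0.19 (SE 0.13) and Hmmr, another hyaluronan receptor, higher by 0.32 (SE 0.20), both with no overlap. Spp1, the CD44 ligand osteopontin, was well above background on both arrays numbered 2, at -5.72 in WT and -5.76 in STAP-2-/-, and on neither numbered 1. It was at least 1.46-fold higher on number 2, a bound that sets each array numbered 1 at the lowest signal well above background there; it was not tested.

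Mesothelin is a GPI-anchored protein of mesothelium that injured epithelium can switch on. Its log2 signal was 0.55 on WT 1, 0.21 on WT 2, 0.97 on STAP-2-/- 1 and -0.37 on STAP-2-/- 2. The STAP-2-/- arrays held both the highest and the lowest value. Number 2 was 1.79-fold lower, a log2 difference of -0.84 (SE 0.26), with an unadjusted limma p of 0.0278 and an adjusted p of 0.162. The genotypes differed by -0.079 (SE 0.51), by 0.59 without STAP-2-/- 2 and by 0.093 without WT 1. Of 8 mesothelium markers, 6 were also lower on number 2 with no overlap (36% of all genes). The other two were higher, Upk1b by 0.32 with no overlap and Aldh1a2 by 0.24. The median was -0.47, and all 8 were well above background on all arrays. Their summed signal, in units of the 75th percentile, was 2.55 to 2.79 on number 1 and 1.96 to 2.36 on number 2. The part of mesothelial tissue in the Msln result was not tested. Muc16, the binding partner of mesothelin, was not matched to a probe here.

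Ly6a encodes Sca-1, a GPI-anchored surface protein. It read 4.63 on WT 1, 4.85 on WT 2, 4.19 on STAP-2-/- 1 and 5.04 on STAP-2-/- 2. The STAP-2-/- arrays enclosed the WT arrays. Number 2 was 1.45-fold higher, a log2 difference of 0.54 (SE 0.19), with an unadjusted limma p of 0.0421 and an adjusted p of 0.187. The genotypes differed by -0.12 (SE 0.34), and by 0.30 without STAP-2-/- 1. Interferons induce Ly6a in many cell types. The summed signal of the 6 interferon response genes checked was 6.41 and 7.24 in WT, 7.65 on STAP-2-/- 1 and 21.2 on STAP-2-/- 2. STAP-2-/- 2 had the highest Ly6a, while STAP-2-/- 1 had the lowest, with a sum above both WT arrays. The 5 T cell markers checked all had a higher mean in STAP-2-/-, 2 with no overlap (11.5% of all genes), with a median of 0.74. Their summed signal was 0.834 and 0.970 on the WT arrays, 1.13 on STAP-2-/- 1 and 1.82 on STAP-2-/- 2. The part of interferon response and T cells in the Ly6a result was not tested.

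Within the Ly6 family, 7 of 10 tested genes were lower in STAP-2-/- with 0 free of overlap (24.8% of all genes; median -0.15), and 7 were higher on number 2 (median 0.19). Ly6e, also induced by interferon, was highest on STAP-2-/- 2, at 4.59 against 3.80 to 4.07 on the other arrays. Ly6c1, of monocytes, vessels and T cells, was between 5.48 and 5.67 on all arrays. Ly6d, of squamous epithelium and lymphoid precursors, was at 0.60 on WT 2 and between -1.04 and -0.28 elsewhere. Genes of the family are close copies of each other, and sharing of signal between their probes was not tested. Ly6g and Ly6c2 were not matched to a probe here.

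Clusterin is a secreted chaperone whose gene marks a rare stem-like cell that appears after gut injury. Clu was at 2.14 on WT 1, 3.04 on WT 2, 2.58 on STAP-2-/- 1 and 1.97 on STAP-2-/- 2. It was the gene of the 8 whose arrays fell in neither order: WT 2 was high and STAP-2-/- 2 low. Number 2 minus number 1 was 0.90 in WT and -0.61 in STAP-2-/-. The genotype difference was -0.31 (SE 0.41, 95% interval -1.46 to 0.84), and 0.14 without WT 2. The mean difference by number was 0.15 (SE 0.40), and -0.39 without WT 2 and -0.075 without WT 1.

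Promoter sequence was read for 4 of the 8 genes, Anxa1, Plaur, F3 and Cd44, from RefSeq on build GRCm38.p6. The other genes of the 8 had no promoter sequence to read. Each window ran from 250 bases before to 50 bases after the annotated start and was searched on both strands. The motifs were GGAATG (bound by TEAD; CATTCC on the other strand), TGANTCA (AP-1) and TTCNNNGAA (STAT), the latter reading the same on both strands, as does the AP-1 form. No matches overlapped each other. F3 held 2 AP-1 matches, at -146 to -140 and -135 to -129 from the start, and Plaur held 1, at -69 to -63; 7.81% of all 32851 windows held at least 1. Anxa1 held 1 TEAD match at -236 to -231, as did 14.7% of all windows. None of the 4 held the STAT motif, found in 8.3% of all windows, and Cd44 held none of the motifs. These matches are letters, not sites shown to be bound. The 250 bases before the start are given for the genes with a match, with the matches in capitals, 5′ to 3′ on the strand of the gene. Anxa1 is at chr19:20390672-20390921 (minus strand), Plaur at chr7:24462233-24462482 (plus strand) and F3 at chr3:121723287-121723536 (plus strand).
Anxa1: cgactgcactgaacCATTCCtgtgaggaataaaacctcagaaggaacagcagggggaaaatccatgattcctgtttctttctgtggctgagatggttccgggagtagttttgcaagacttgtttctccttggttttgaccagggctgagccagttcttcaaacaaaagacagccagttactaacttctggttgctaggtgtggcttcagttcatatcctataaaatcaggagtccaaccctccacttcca
Plaur: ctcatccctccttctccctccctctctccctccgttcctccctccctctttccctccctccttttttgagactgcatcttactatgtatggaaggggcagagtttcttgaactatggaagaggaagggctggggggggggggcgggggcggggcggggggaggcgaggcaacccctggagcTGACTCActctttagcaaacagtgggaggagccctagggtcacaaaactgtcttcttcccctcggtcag
F3: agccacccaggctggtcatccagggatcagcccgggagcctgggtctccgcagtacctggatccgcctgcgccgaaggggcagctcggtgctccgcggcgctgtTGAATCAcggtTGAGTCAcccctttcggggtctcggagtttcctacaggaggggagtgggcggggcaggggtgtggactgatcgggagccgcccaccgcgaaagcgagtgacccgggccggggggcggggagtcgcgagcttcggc
Plaur, higher on number 2, and F3, lower on number 2, both held the AP-1 letters. The part of AP-1 in either difference was not tested.

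Other genes read as fetal-like or of repair were mostly lower in STAP-2-/- and mostly higher on number 2. Of 22 listed, 20 were tested: 17 had a lower mean in STAP-2-/- (51.7% of all genes), 2 with no overlap (13.3% of all genes), with a median of -0.20. The 2 were Areg and Anxa2. By number 16 were higher, 13 of them with no overlap (26.4% of all genes), with a median of 0.38. The list was drawn up with earlier results of these arrays known, and shares Anxa2 with the annexins, Plat with the plasminogen list and Spp1 with the CD44 partners.

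Areg, an EGF receptor ligand that promotes epithelial growth, was at 0.085 and 0.022 in WT and -0.52 and -0.30 in STAP-2-/-, a difference of -0.47 (SE 0.15) with no overlap and an unadjusted limma p of 0.0360. Ereg, a ligand of the same receptor, followed the number: it was at -1.52 and -1.77 on number 1 and 0.24 and -0.36 on number 2, a difference of 1.58 (SE 0.24) with an adjusted p of 0.0966. Gja1, the gap junction protein connexin 43, was higher by 0.55 (SE 0.17) and the alarmin Il33 by 0.40 (SE 0.20) on number 2, neither overlapping by number. Krt7, a keratin of simple epithelium, was higher by 0.33 (SE 0.16) on number 2, also with no overlap. Il1rn, the interleukin-1 receptor antagonist, differed by 0.053 by number and -0.15 by genotype.

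Direct targets of YAP and TEAD showed no common direction by number, 11 of 21 tested being higher on number 2 (median 0.0017). By genotype 14 were lower in STAP-2-/- (median -0.21), 5 with no overlap against 13.3% of all genes, and 2 were higher with no overlap against 11.5%. The 5 were Ankrd1, Ccn2 and, named after their values were seen, Tgfb2, Rbms3 and Arhgef17; the 2, named likewise, were Igfbp3 and Gadd45a. Ankrd1, a nuclear ankyrin repeat protein, was at -3.54 and -4.48 in WT and -5.60 and -4.95 in STAP-2-/-, a difference of -1.26 (SE 0.43). Its unadjusted limma p was 0.0436. Ccn2, a matricellular protein also made by fibroblasts, differed by -0.31 (SE 0.21). Ccn1, of the same family, differed by -0.12 (SE 0.37), the receptor kinase gene Axl by -0.18 (SE 0.18) and the YAP kinase gene Lats2 by -0.21 (SE 0.17). All 6 fibroblast markers also had a lower mean in STAP-2-/- (median -0.37), and 3 did not overlap (13.3% of all genes). Their summed signal was 73.9 and 87.9 in WT and 69.3 and 60.8 in STAP-2-/-. Their part in these differences was not tested.

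**Figure D4:**
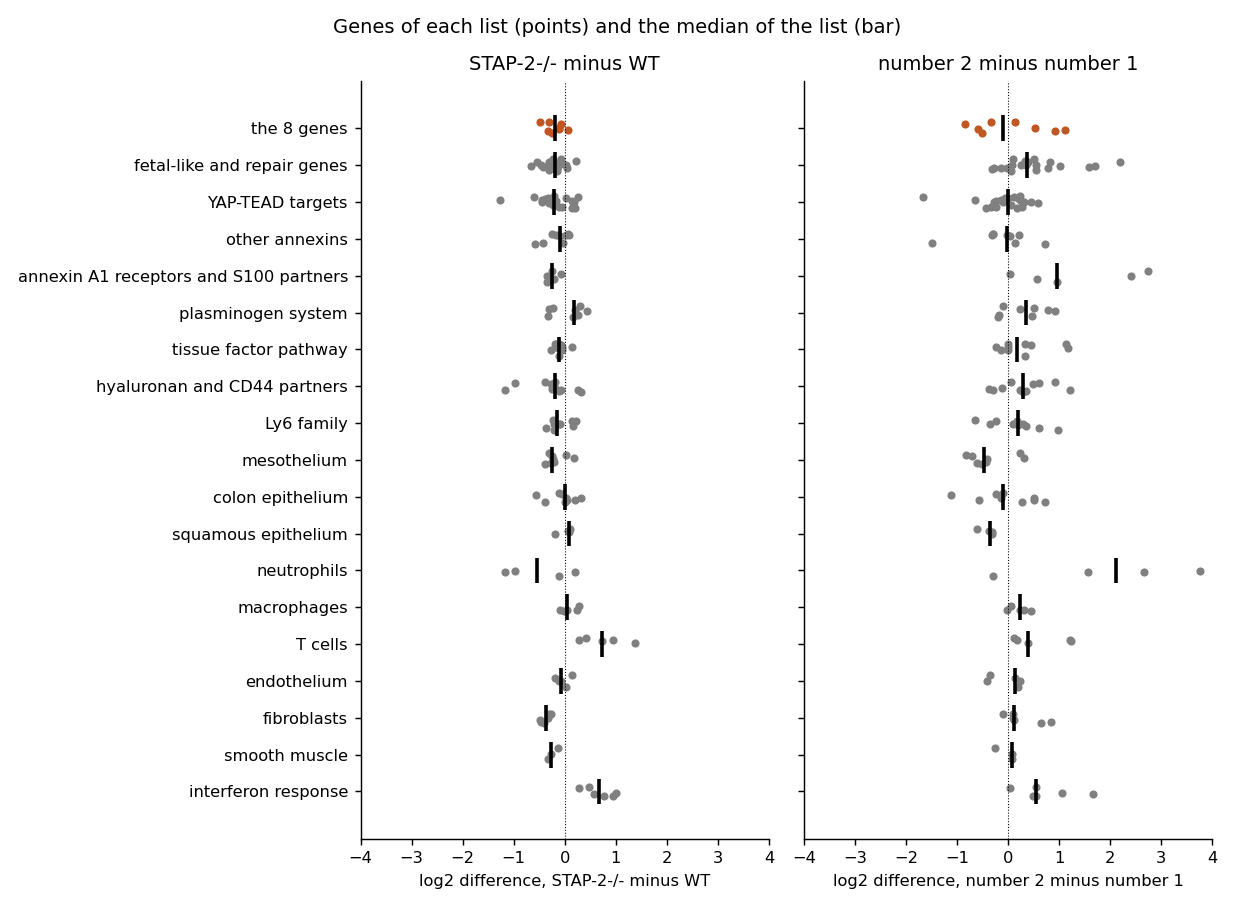
Log2 differences (horizontal axis) of the tested genes of each list, STAP-2-/- minus WT on the left and number 2 minus number 1 on the right; each point is a gene and each black bar the median of the list. By genotype the medians of T cells (0.74), interferon response (0.67), neutrophils (-0.54), fibroblasts (-0.37) and smooth muscle (-0.26) lie more than 0.25 from 0 and the others nearer, while by number the median is 0.38 for fetal-like and repair genes, 0.96 for annexin A1 receptors and S100 partners and 2.11 for neutrophils.

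Most tested markers of myeloid cells had a higher mean on number 2, Csf3r and Csf1r being lower. Of 5 neutrophil markers, 4 were tested, and S100a8, S100a9 and Retnlg were higher on number 2 with no overlap (26.4% of all genes), by 2.67, 3.76 and 1.56, while Csf3r was lower by 0.30 with no overlap. The summed signal, which includes the bright Csf3r probe, was 57.1 to 58.4 on number 1 and 44.3 to 52.8 on number 2. That fall came from Csf3r, the 1 marker of the 4 that was lower. Cxcr2 was well above background on 1 array. Of 5 macrophage markers tested, 4 had a higher mean on number 2, 2 of them with no overlap (26.4% of all genes). Csf1r differed by -0.025 (median of the 5, 0.24). Plaur, Cd44, Fpr1 and Fpr2 were all higher on the same arrays as S100a8 and S100a9, and the part of neutrophils in those results was not tested. Colon epithelium markers had no common direction by number, 4 of 9 being higher with no overlap (26.4% of all genes) and 4 lower (36%), or by genotype (median -0.0049), where 0 of 9 had no overlap (24.8%). Squamous epithelium markers, which would come from the anal margin, were lower on number 2 with no overlap for 4 of 4 tested (36% of all genes), with a median of -0.35.

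For the 4 genes with a range of at least 1, the genes with the closest profile over the 4 arrays were looked up among 14457 genes by the root mean square difference of centred log2 values. Plaur was closest to S100a11 (0.020), Thbs1 (0.030) and Unc93a (0.040), and Cd44 to Foxm1 (0.026) and Spdl1 (0.033). Msln was closest to Fkbp1b (0.028), Trp53i11 (0.032) and Lrmp (0.040), and Clu to Gjd3 (0.033), Olfr1131 (0.071) and Bank1 (0.096). With 4 arrays many profiles lie close by, so this is a description. S100a11 also stood in the list of annexin A1 receptors and S100 partners.

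**Figure D5:**
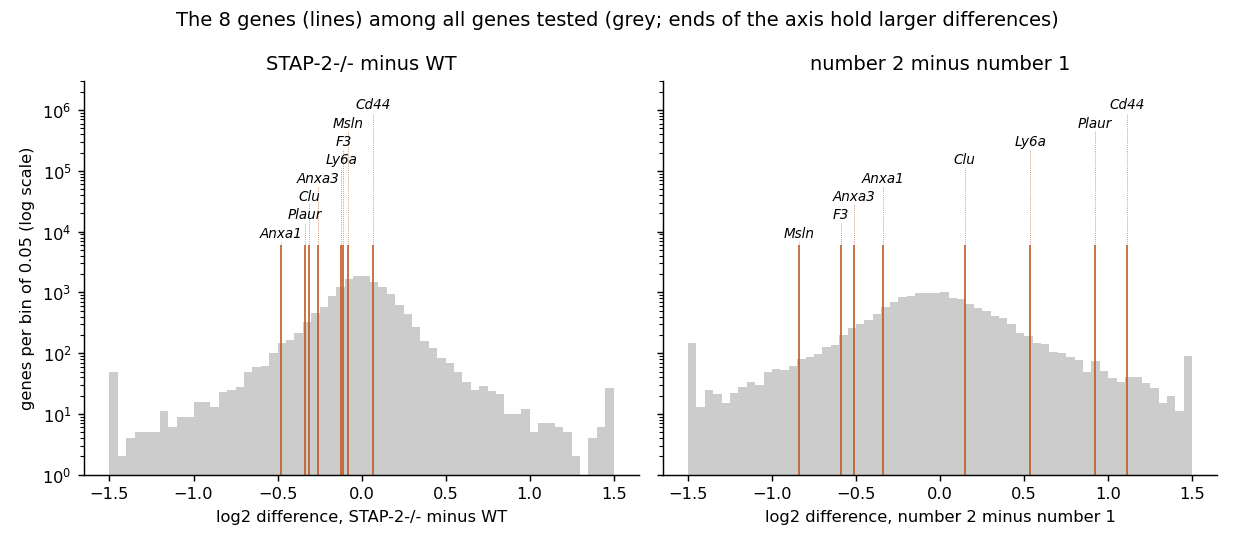
Number of genes (vertical axis, log scale) per bin of log2 difference (horizontal axis) over all 15561 genes tested, STAP-2-/- minus WT on the left and number 2 minus number 1 on the right; orange lines mark the 8 genes. By genotype the 8 lie between -0.48 and 0.071, and by number between -0.84 and 1.11.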

How the data were processed

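Whole-colon RNA was labelled with Cy3, per the labels' protocols, and hybridised to Agilent arrays. Agilent Feature Extraction 10.7.1.1 made the files, per the submitters' processing notes. The deposited scanner files give a processed intensity per spot, corrected for background within the array and not scaled between arrays, per the file headers. They also hold the median spot and background intensity and flags that were used here. A ratio is what the value table deposited by the authors gives, namely the processed signal over an array-wide constant (100% of probes compared were within 1%); its column medians were 0.091, 0.087, 0.091 and 0.085, and it is linear and not centred by gene.

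Here log2 of the processed signal was set against the 75th percentile of each array. Controls were dropped, outlier-flagged spots were treated as missing, and repeated spots were averaged by probe. Probes were named by accession through a RefSeq table of GRCm38.p6; the array's own annotation is on another build, so no probe coordinates are given; those of promoter windows are from the RefSeq table. A gene was tested, in both comparisons, if both arrays of either genotype read its probe well above background; all 8 genes met this on all 4 arrays. Genotype and number were each fitted alone across all genes in R 4.3.3 using lmFit and eBayes of limma 3.58.1, two-sided, with Benjamini-Hochberg adjustment at 0.05. All adjusted p-values come from those fits. The genotype fit was run on simulated arrays with no difference by number. It called 5.15% of 2-fold, 79.6% of 4-fold and 98.1% of 16-fold changes there. Those arrays held planted changes, which ease the adjustment, and errors independent between arrays, so these shares need not hold here. On the deposited arrays Stap2, at least 721-fold higher in WT, was not called (adjusted limma p 0.314). The fit by number was not simulated. The p-values by genotype measure the spread between the pools of a genotype. Those by number measure the spread between the WT and STAP-2-/- pools of the same number. The members and lists were chosen with earlier results of these data known, so counts and medians of lists are descriptions without a test. Named genes were the 8, partner genes set by role, genes of closest profile, and any others marked as chosen by their values; a few genes under this rule are not reported here. Alternatives were other scalings (quantile, median, detected probes), normexp with an offset of 50 on the median spot intensity, the value table, other filters, flagged spots kept, the mean of probes, a trend with robust fit, the replicate number as a block, and each array left out.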

Additional observations from a re-analysis of the deposited data

How the results depend on the processing

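Under the 11 settings that keep all 4 arrays, all 88 genotype and all 88 number differences of the 8 genes kept their direction and stayed above an adjusted limma p of 0.05. The lowest adjusted p was 0.700 by genotype (Anxa1) and 0.0569 by number (Cd44). Normexp background correction called 1 gene by genotype, Stap2. With 1 array left out, 0 to 1 gene was called by number (Six2 without WT replicate 1, named after its value was seen) and 0 by genotype. The number of the 8 genes with no overlap between genotypes then ran from 2 to 7, since 1 array against 2 overlaps less often by construction.

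With 1 array left out, the genotype differences ran from -0.55 to 0.30 for Ly6a, -0.72 to 0.20 for Anxa3, -0.76 to 0.14 for Clu, -0.90 to 0.23 for Plaur, -0.47 to 0.26 for F3, -0.75 to 0.59 for Msln and -0.52 to 0.66 for Cd44. Anxa1, from -0.73 to -0.23, was the 1 gene of the 8 that kept its direction in all 4. Its genotypes did not overlap, so leaving out 1 array could not change its direction. By number, the difference of Clu ran from -0.39 to 0.68 and the other 7 kept their direction. For the 6 with no overlap by number, this too was fixed. Leaving out 1 array unbalances number and genotype, so each of these differences takes in part of the other.

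The labels do not say that the number marks a shared litter or day, and over 15551 genes the deviations of same-numbered arrays from their genotype mean had a correlation of 0.596. With the replicate number as a block, 0 genes were called by genotype, and 1040 had an unadjusted p under 0.05 against 325 without it. The block left Anxa1 at an unadjusted p of 0.0342 and an adjusted p of 0.700. With 2 arrays per genotype and no depth to draw on, the signal over background sets no further limit for the 8 genes.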
